A study of Mus musculus with 8 samples.

Results

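The genes described here are Ngef, which encodes the guanine nucleotide exchange factor ephexin, with 5 Eph receptors (Epha2, Epha3, Epha4, Ephb2 and Ephb4) and 4 ephrin ligands (Efna1, Efna5, Efnb1 and Efnb2). These 10 genes, of 23500 in the tables, were found by matching RefSeq transcripts to their symbols, which gave 14 transcript entries, and the values of the entries were summed per gene. The cells were cultured mouse bone marrow stem cells (mBMSCs), kept in a medium made for mesenchymal cells, whose descendants include bone, cartilage and fat. All of them, controls included, were p53 knockout, below 20 passages and transduced with a retrovirus, and each belonged to 1 of 4 clones, numbered 2, 4, 8 and 12. The virus carried luciferase (Luc), the control, or cFos cDNA, which encodes a subunit of the AP-1 transcription factor, and no other treatment was given. This gave 4 Luc and 4 cFos libraries, 1 per clone and virus, written below as Luc 8 or cFos 8. Levels are in FPKM, a unit scaled for transcript length and for the size of the library. Group values are the mean ± SD with n = 4, and their spread is the difference from clone to clone, since no culture was repeated within a clone and virus.

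Eph receptors are receptor tyrosine kinases, and ephrins are their ligands on the surface of neighbouring cells. EphA receptors mainly bind ephrin-A ligands, which are held by a lipid anchor, and EphB receptors mainly bind ephrin-B ligands, which span the membrane and can signal back into the cell that carries them. Ephexin is known from neurons, where it binds EphA receptors such as EphA4 and activates small GTPases to steer growth cones. In bone, EphB4 on osteoblast-lineage cells and ephrin-B2 on osteoclasts are known for contact signalling between these cells. The comparison asks whether the receptors and ligands upstream of Ngef changed along with it when cFos was expressed.

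The genes were selected on the contrast of cFos with Luc, with their FPKM values in it known and starting from the level of Ngef, so their values in this contrast are a description and carry no p-value. Of the 10 genes, 9 were expressed enough to enter the fit over all genes. There, 1 rose (Ngef), 1 fell (Efnb1) and 7 did not pass, where 2.92% of the 11162 tested genes rose and 2.62% fell, 5.55% in all. None of the 4 tested receptors passed. The median log2 difference over the 9 genes was -0.37, and over all tested genes it was -0.06. A model that also holds the clone, which compares the arms inside each clone, called 1 member as higher and 3 as lower, with Efna5 and Efnb2 beside Efnb1. It called 8.79% of all tested genes, 4.51% as higher and 4.28% as lower.

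The Ngef gene is annotated with a pair of transcripts that begin at separate starts. The start of the shorter transcript (NM_019867) lies 63508 bases inside the gene from that of the longer transcript (NM_001111314), which places it within the longer one. In GENCODE M21 the coding sequence of the shorter is 1863 bases, of which 107 at its beginning are its own and 1756 are shared. The coding sequence of the longer is 2133 bases with 377 of its own. The beginnings are shown because nearly all of the Ngef signal was assigned to the shorter transcript. Each line gives 107 coding bases from build GRCm38 on the minus strand, at chr1:87510093-87510199 for the shorter and chr1:87545952-87546058 for the longer, with the start codon in capitals.
Ngef shorter transcript: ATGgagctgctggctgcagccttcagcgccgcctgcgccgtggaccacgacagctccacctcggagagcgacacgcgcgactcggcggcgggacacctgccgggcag
Ngef longer transcript: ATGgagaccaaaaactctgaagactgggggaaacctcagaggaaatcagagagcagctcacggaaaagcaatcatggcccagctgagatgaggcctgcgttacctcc

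Ngef (mm9, chromosome 1, 89373404 to 89470445) was near 0 in every Luc library. In clones 2, 4, 8 and 12 it was at 0.163, 0.397, 0.0439 and 0.348 FPKM in Luc and at 39.9, 38.5, 37.4 and 19.9 FPKM in cFos. The groups do not overlap, clones 2, 4 and 8 were close together in cFos, and cFos 12 was lower. The mean was 0.238 ± 0.164 FPKM in Luc and 33.9 ± 9.41 in cFos, 143 times as high. On the scale of log2(FPKM + 0.5), which understates the change of low genes, the difference was 5.52 (SE 0.26), with 5.93, 5.44, 6.12 and 4.59 within clones 2, 4, 8 and 12. No Luc library reached 1 FPKM, so Ngef entered the fit through the cFos libraries alone. In Luc it was the lowest of the 10 genes by mean, and in cFos it was the highest, with a range that lay apart from that of the next gene, Epha2. In Luc the ranges of Ngef and Epha4 overlap, and Epha4 was below Ngef in Luc 4 and Luc 8.

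The summed level of 12 markers of neurons, the cells ephexin is known from, was also higher in cFos. The list of 12 summed to 7.90, 1.56, 0.374 and 8.09 FPKM in Luc and 13.4, 8.14, 6.61 and 20.2 in cFos, higher in cFos in all 4 clones. Map2, a microtubule protein of dendrites, was at 0.196, 0.149, 0.0145 and 0.368 FPKM in Luc and 2.20, 1.38, 0.370 and 3.91 in cFos. Stmn2, a neuronal stathmin, was at 0.111 FPKM or less in Luc and at 3.69, 1.92, 0.0147 and 8.95 in cFos, so it stayed low in clone 8, where Ngef was at 37.4. Tubb3 was lower in cFos in clones 2 and 12 and higher in clones 4 and 8. The other 9 markers were at 0.490 FPKM or less in every library. The part of these markers in the Ngef result was not tested. A rise was not particular to the neuron list. In clones 2, 4, 8 and 12 a list of 8 epithelial markers summed to 0.127, 0.128, 0.352 and 1.43 FPKM in Luc. In cFos it summed to 0.0723, 1.57, 2.74 and 2.62, higher in 3 clones and lower in clone 2.

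The shorter transcript held 0.210 ± 0.163 FPKM in Luc and 33.7 ± 9.27 in cFos. The longer transcript held 0.0275 ± 0.0331 FPKM in Luc and 0.238 ± 0.192 in cFos, and its highest upper confidence limit in any cFos library, as given by the authors, was 0.596. In cFos the shorter transcript made up 99.4 ± 0.511% of the gene's FPKM, and at least 98.9% in each library. In Luc the gene was too low for a share to be read. The split between the transcripts is the authors' estimate.

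**Figure D1:**
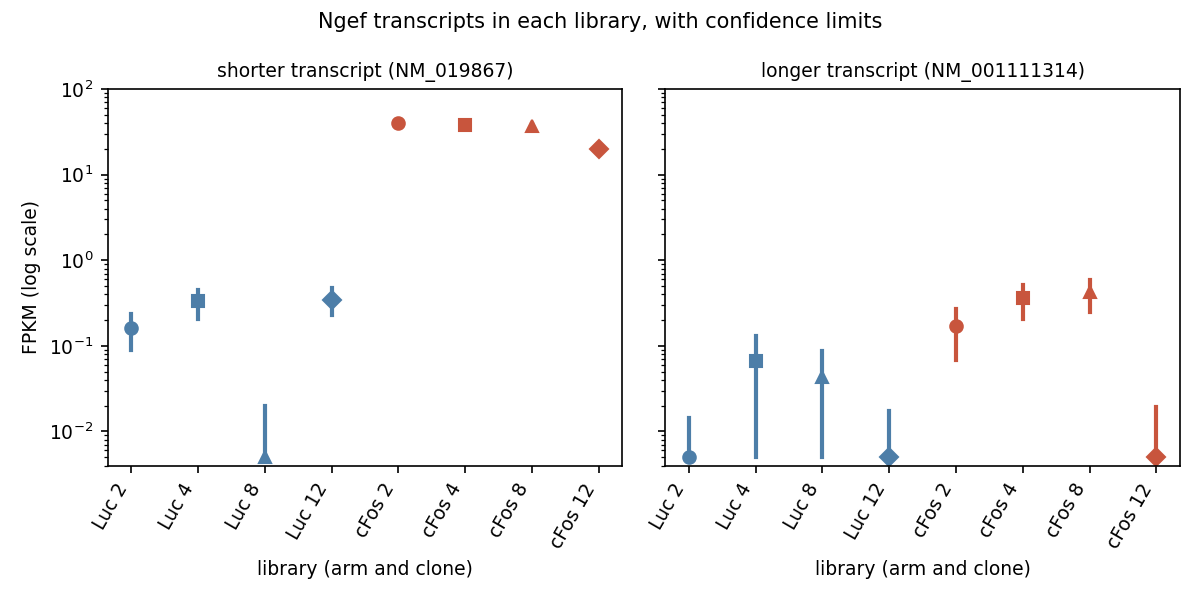
FPKM of both Ngef transcripts (log axis) in the 4 Luc and 4 cFos libraries, with vertical lines for the authors' confidence limits and values below 0.005 drawn at 0.005. The shorter transcript lies between 19.9 and 39.8 FPKM in cFos and at 0.348 or less in Luc, while the longer stays at 0.423 or less in every library.

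**Figure D2:**
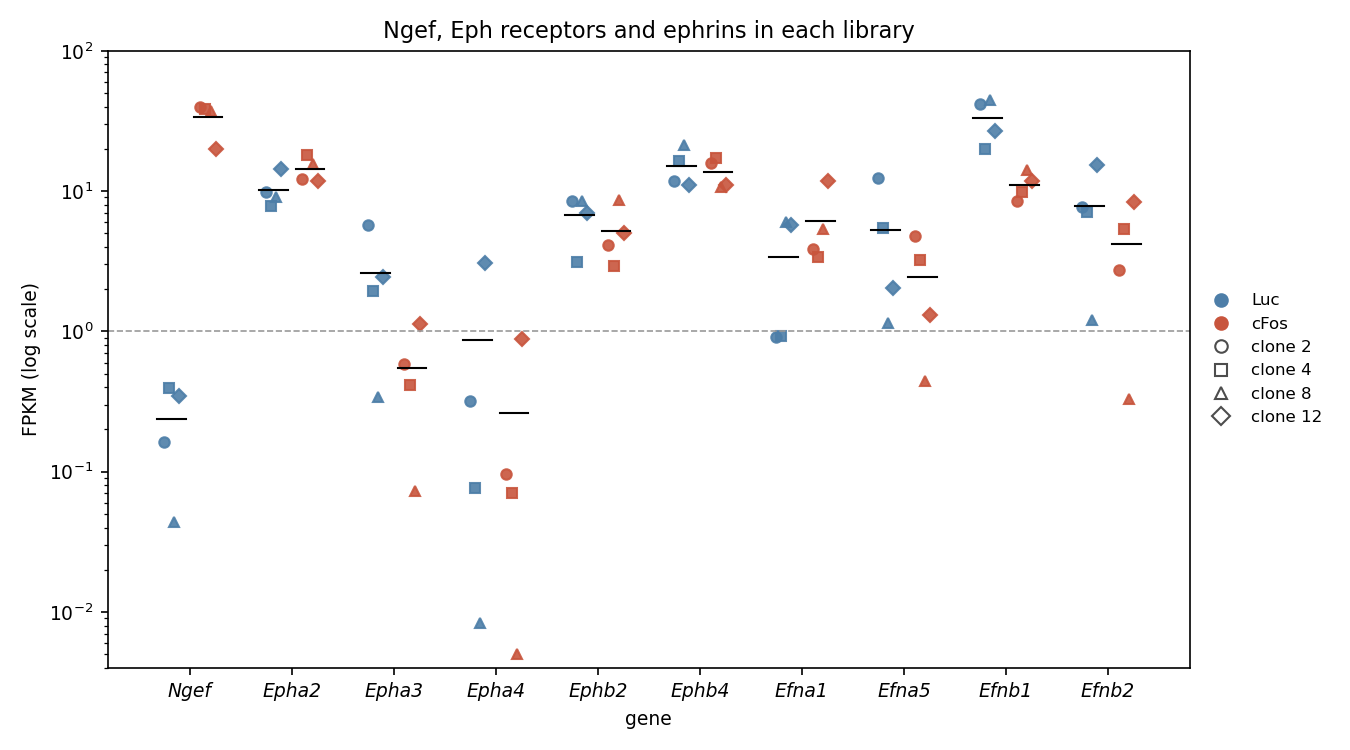
FPKM (log axis) of the 10 genes in each library, blue for Luc and red for cFos, with a symbol per clone, a bar at the group mean, a dashed line at 1 FPKM and values below 0.005 drawn at 0.005. Only Ngef (cFos above) and Efnb1 (cFos below) have groups that do not overlap.

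Among the EphA receptors, Epha2 was the most abundant, and the others were low. Epha2 (chromosome 4, 140857136 to 140885299), a receptor known from epithelia and many tumours, was at 9.80, 7.86, 9.02 and 14.3 FPKM in the Luc libraries of clones 2, 4, 8 and 12. It was at 12.2, 18.2, 15.6 and 11.7 FPKM in cFos. The groups overlap, since cFos was higher in 3 clones and lower in clone 12. The log2 difference of 0.49 (SE 0.21) did not pass. Its share of all EphA receptor FPKM was 63.0 ± 12.4% in Luc and 90.4 ± 6.23% in cFos, and the levels of the other EphA receptors enter that share. Epha1, too low to test, was at 0.451, 0.736, 1.88 and 0.380 FPKM in Luc and 0.178, 0.308, 0.205 and 0.251 in cFos, lower in each clone without overlap, and Epha7 was lower in cFos in 3 clones and higher in clone 12.

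Epha3 (chromosome 16, 63545044 to 63863983), which binds ephrin-A5 with high affinity, was at 5.75, 1.94, 0.339 and 2.43 FPKM in Luc and 0.584, 0.413, 0.0734 and 1.13 in cFos. It was lower in cFos in each clone, but the groups overlap because Luc 8 was below most cFos libraries. The difference of -1.34 (SE 0.57) did not pass. It reached 1 FPKM in 3 Luc libraries and 1 cFos library, the least that the filter allowed.

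Epha4 (chromosome 1, 77363760 to 77511663), the receptor with which ephexin was described in neurons, was at 0.318, 0.0771, 0.00837 and 3.06 FPKM in Luc. In cFos it was at 0.0970, 0.0701, 0 and 0.881 FPKM, where cFos 8 is listed at 0. Only Luc 12 reached 1 FPKM, so Epha4 was not tested. Clone 12 was the highest in both arms, and clone 8 the lowest.

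Of the EphB receptors, Ephb4 and Ephb2 reached 1 FPKM in every library, as did Ephb3 and Ephb6, which are given below. Ephb4 (chromosome 5, 137791337 to 137815750), the receptor of ephrin-B2, was at 11.7, 16.3, 21.4 and 11.1 FPKM in Luc and 15.9, 17.3, 10.6 and 10.99 in cFos. The arms overlap, with cFos higher in 2 clones and lower in 2. The difference of -0.12 (SE 0.24) did not pass, and it was 0.06 without Luc 8. Ephb2 (chromosome 4, 136209525 to 136391850), a receptor of ephrin-B ligands, was at 8.46, 3.11, 8.56 and 7.03 FPKM in Luc and 4.10, 2.93, 8.67 and 5.03 in cFos. The groups overlap, clone 8 had the highest and clone 4 the lowest level in both arms, and the difference of -0.37 (SE 0.37) did not pass. Ephb4 held 44.1 ± 11.8% of all EphB receptor FPKM in Luc and 44.0 ± 6.20% in cFos, and Ephb2 held 19.4 ± 6.26% and 17.5 ± 9.95%.

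Efnb1 was the ligand that fell both without and with the clone in the model, while Efna5 and Efnb2 fell with the clone as a block. Efnb1 (chromosome X, 96331469 to 96344330), which encodes the transmembrane ligand ephrin-B1, was at 41.7, 20.0, 44.9 and 27.0 FPKM in the Luc libraries of clones 2, 4, 8 and 12. In cFos it was at 8.55, 9.80, 14.2 and 11.7 FPKM. Every cFos library lay below every Luc library, and the clones were closer together in cFos. Mean Efnb1 was 33.4 ± 11.9 FPKM in Luc and 11.1 ± 2.45 in cFos. The fall on the log2 scale was -1.50 (SE 0.27). Luc was 4.88, 2.04, 3.17 and 2.31 times as high as cFos in clones 2, 4, 8 and 12. Its call ended without cFos 2 or cFos 4. In Luc it had the highest mean of the 10 genes, and in cFos it was below Ngef, Epha2 and Ephb4, with ranges that overlap those of Epha2 and Ephb4.

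Efnb2 (chromosome 8, 8617439 to 8660773), which encodes ephrin-B2, was at 7.72, 7.15, 1.20 and 15.3 FPKM in Luc and 2.76, 5.34, 0.330 and 8.36 in cFos. It was lower in cFos in each clone, and the groups overlap, with clone 12 high and clone 8 low in both arms. The difference was -0.90 with SE 0.83 without the clone in the model, and SE 0.18 with the clone as a block, where Efnb2 fell. Efnb1 held 79.2 ± 14.5% of ephrin-B FPKM in Luc and 73.1 ± 17.2% in cFos, and Efnb2 nearly all of the rest.

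Efna5 (chromosome 17, 62952306 to 63230666), which encodes the anchored ligand ephrin-A5, was at 12.3, 5.46, 1.16 and 2.03 FPKM in Luc and 4.81, 3.21, 0.443 and 1.30 in cFos. It was lower in cFos in each clone, with the same order of clones (2, 4, 12, 8) in both arms, and the groups overlap. The difference was -0.81 with SE 0.71 without the clone and SE 0.18 with the clone as a block, where it fell. Efna1 (chromosome 3, 89075652 to 89084873), a ligand of EphA2, was at 0.915, 0.929, 5.98 and 5.72 FPKM in Luc and 3.85, 3.38, 5.35 and 11.7 in cFos. It was higher in cFos in 3 clones and a little lower in clone 8, and the difference of 0.97 (SE 0.60) did not pass. Luc 2 and Luc 4 were low, and the other 6 libraries overlap.

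**Figure D3:**
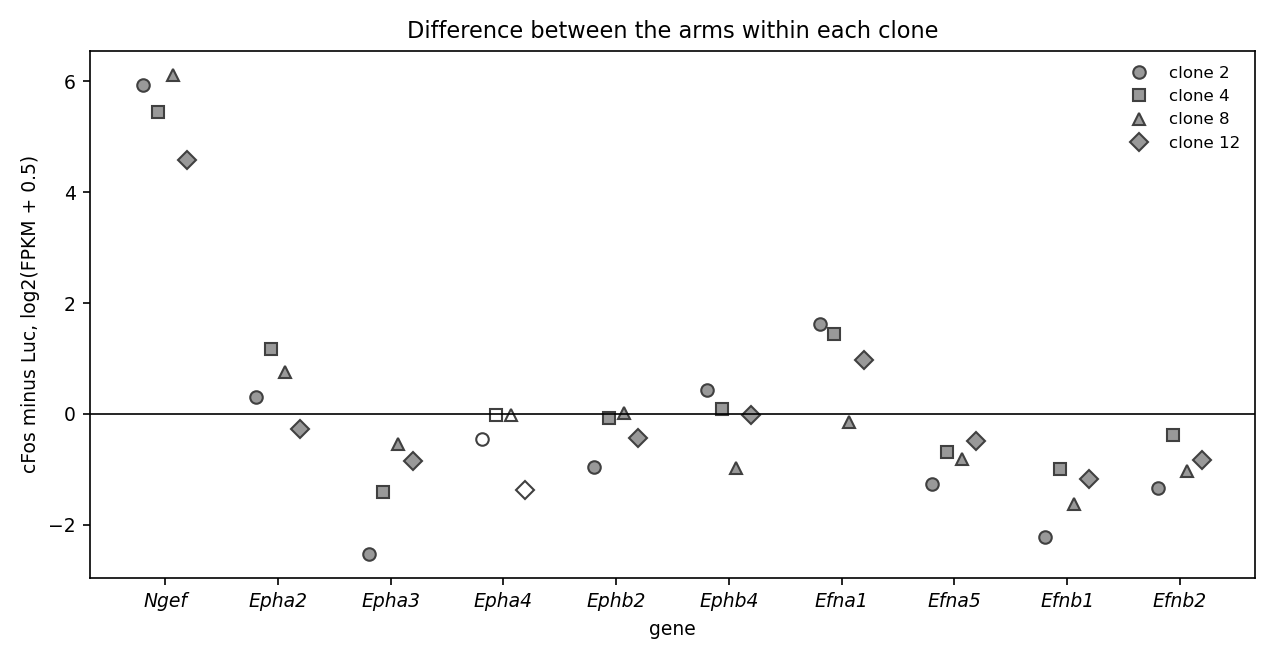
Difference of cFos and Luc within each clone on the scale of log2(FPKM + 0.5) for the 10 genes, with a symbol per clone and open symbols for Epha4, which was not tested. Ngef lies between 4.59 and 6.12, Efnb1 between -2.22 and -0.99, and the differences of Epha2, Ephb2, Ephb4 and Efna1 take both signs.

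The arms differed in the same direction in all 4 clones for 6 of the 10 genes, Ngef upward and Epha3, Epha4, Efna5, Efnb1 and Efnb2 downward. Of these, Epha4 was not tested, and in clones 4 and 8 it was at 0.0771 FPKM or less in both arms, too low for a direction to be read. Of all tested genes, 15.3% were higher in cFos in all 4 clones and 20.9% lower, 36.2% in all. The groups did not overlap for 2 of the 10, Ngef with cFos above and Efnb1 with cFos below, where 5.86% of all tested genes lay above without overlap and 7.8% below, 13.7% in all.

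Summed over every family member in the tables, the receptor families differed little between the arms and the ephrin-B family differed most. The 9 EphA receptors came to 16.5 ± 3.99 FPKM in Luc and 15.9 ± 2.80 in cFos. Epha2 held most of this sum (63.0% on average in Luc and 90.4% in cFos) and was higher in cFos in 3 clones. Epha1, Epha3 and Epha4 were lower in each clone, so a similar sum does not show that each receptor stayed the same. The 5 EphB receptors came to 34.4 ± 6.29 and 30.8 ± 3.38 FPKM, and the 5 ephrin-A ligands to 15.0 ± 2.38 and 14.1 ± 3.82. For each of these families cFos was lower in 2 clones and higher in 2. The 3 ephrin-B ligands came to 49.7, 27.4, 46.3 and 42.7 FPKM in Luc clones 2, 4, 8 and 12 and to 11.5, 15.4, 14.6 and 20.3 in cFos. Every cFos library was below every Luc library, and the ratio of the means, Luc over cFos, was 2.69. Efnb1, a member selected on this contrast, held most of the ephrin-B sum (79.2% on average in Luc and 73.1% in cFos), so the sum is no separate support. All receptors together came to 42.7 to 54.9 FPKM in Luc and 42.4 to 53.9 in cFos.

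**Figure D4:**
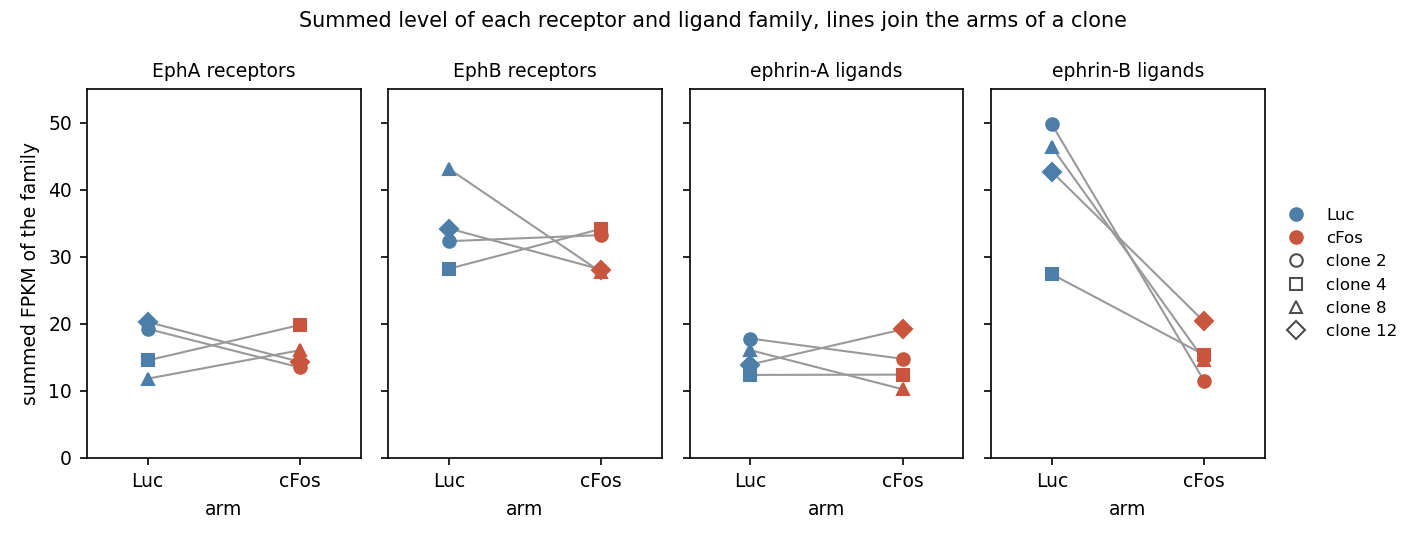
Summed FPKM of the EphA receptors, EphB receptors, ephrin-A ligands and ephrin-B ligands in each library, with lines joining the arms of a clone. The ephrin-B sum drops in all 4 clones, from 27.4 to 49.7 in Luc to 11.5 to 20.3 in cFos, and the other sums differ in both directions.

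Some ligands and receptors are made in forms that differ by a short coding stretch, which is shown because the tables list the forms separately. The longer form of Efna5 (NM_207654) carries 81 coding bases that the shorter (NM_010109) lacks, at chr17:62613316-62613396 on the minus strand of GRCm38. The longer form of Ephb4 (NM_001159571) carries 27 coding bases that the shorter (NM_010144) lacks, at chr5:137362363-137362389 on the plus strand.
Efna5 longer form: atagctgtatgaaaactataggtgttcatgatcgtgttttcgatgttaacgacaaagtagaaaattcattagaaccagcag
Ephb4 longer form: ggcgcattgggtttctttctcctgcag
The longer Efna5 form made up 63.6 ± 18.5% of the gene's FPKM in Luc and 71.3 ± 12.0% in cFos. The longer Ephb4 form made up 8.18 ± 1.04% in Luc and 6.43 ± 5.05% in cFos, from 2.30% to 12.8% between the cFos libraries. In clones 2, 4, 8 and 12 the share of the longer Efna5 form was 71.9%, 68.4%, 36.4% and 77.7% in Luc and 73.9%, 71.5%, 55.3% and 84.4% in cFos. It was higher in cFos in each clone, while the groups overlap. The gap was widest in clone 8, where Efna5 was low, at 1.16 FPKM in Luc and 0.443 in cFos. In cFos 8 the shorter form was at 0.198 FPKM and the longer at 0.245, with confidence limits that overlap, so that share is uncertain. In Luc 8 the limits of the forms do not overlap. The share of the longer Ephb4 form was higher in cFos in clone 4 and lower in the other clones. These shares were not tested.

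Differences between the clones do not depend on the contrast that chose the genes and could be tested. With arm and clone in the model, an F test by limma over the clones passed for 54 of all tested genes, 0.484%, and for 2 of the 9 members, Efna5 and Efnb2 (adjusted p = 0.0371 for each). Efnb2 was highest in clone 12 and lowest in clone 8 in both arms. Efna5 was highest in clone 2 and lowest in clone 8 in both arms. These calls depend on the libraries. The call of each held without cFos 8 (adjusted p = 0.0492) and ended without any of the other 7, with adjusted p up to 0.155. Both calls also ended with no filter on low genes (0.159 for Efna5 and 0.144 for Efnb2). Efna1 passed without cFos 8 (0.0432), and its adjusted p was 0.172 over all 8 libraries. Over the alternatives tried, the adjusted p ranged from 0.0332 to 0.159 for Efna5, from 0.0332 to 0.155 for Efnb2 and from 0.0432 to 0.441 for Efna1.

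Other genes of the pathway were taken from 7 lists with 69 genes, of which 47 were expressed enough to test. Of these, 1 rose, 2 fell and 44 did not pass, so that 6.38% of the 47 were called beside 5.55% of all genes. The median log2 difference was -0.07. With the clone in the model, 1 of the 47 rose and 3 fell, where that model called 8.79% of all tested genes, 4.51% as higher and 4.28% as lower. With median-ratio or upper-quartile scaling neither of the 2 falls passed.

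Among the 9 other Eph receptors 2 could be tested, none passed, and 6 had a mean below 1 FPKM. Ephb3 was at 6.27 ± 2.79 FPKM in Luc and 5.39 ± 0.559 in cFos. Ephb6, which lacks kinase activity, was at 6.24 ± 3.35 and 6.51 ± 2.64 FPKM. Of the 4 other ephrins 2 were tested and none passed. Efna4 was at 4.60 ± 1.35 and 3.36 ± 0.687 FPKM and Efna2 at 1.52 ± 0.604 and 1.81 ± 0.366. Of the 4 other ephexin family genes 2 were tested and none passed. The 2 that could not be tested stayed below 1 FPKM. Of these, Arhgef15 was at 0.103, 0.0734, 0.0203 and 0.582 FPKM in Luc and 0.389, 0.740, 0.182 and 0.617 in cFos, higher in cFos in each clone with the groups overlapping, and Arhgef16 was at 0.0200 FPKM or less. Arhgef19 was at 5.99 ± 2.45 FPKM in Luc and 9.81 ± 4.35 in cFos, with the groups overlapping, and Arhgef5 at 5.04 ± 3.27 and 5.37 ± 4.57. Whether Ngef and the other ephexins differed in their response was not tested.

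Of 8 tested exchange factors and GTPase-activating proteins linked to Eph signalling, 1 fell, none rose and 7 did not pass. Kalrn, which encodes the exchange factor kalirin, was at 3.80, 2.02, 2.85 and 5.31 FPKM in Luc and 0.803, 0.996, 0.770 and 1.97 in cFos. The groups do not overlap, and Kalrn fell by 1.28 on the log2 scale (SE 0.31, limma adjusted p = 0.0489). In this model without the clone, the call remained without Luc 4 or without cFos 12. It ended without any of the other 6 libraries (limma adjusted p up to 0.142). With the clone as a block and all libraries Kalrn also fell (limma adjusted p = 0.0157). Itsn1, which encodes the scaffold and exchange factor intersectin, was at 41.4 ± 15.9 and 30.3 ± 5.30 FPKM and did not pass. Arhgap35, which encodes a GTPase-activating protein, was at 20.8 ± 5.86 and 18.8 ± 5.44 FPKM and did not pass either.

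Of 21 tested kinases, phosphatases and adaptors, 1 rose, 1 fell and 19 did not pass. Abl2, a kinase of the Abl family, was at 6.81, 6.81, 5.32 and 7.92 FPKM in Luc and 9.88, 11.4, 9.66 and 10.6 in cFos. All cFos libraries lay above all Luc libraries, and Abl2 rose by 0.60 on the log2 scale (SE 0.14, limma adjusted p = 0.0439). Its relative Abl1 was at 25.0, 22.3, 26.0 and 25.8 FPKM in Luc and 19.2, 18.1, 14.6 and 17.0 in cFos. All cFos libraries lay below all Luc libraries, and Abl1 fell by 0.52 on the log2 scale (SE 0.12, limma adjusted p = 0.0454). Leaving out a library ended the call of Abl1 in all 8 cases (limma adjusted p 0.0629 to 0.109) and that of Abl2 in all cases but Luc 12 (up to 0.129). With the clone as a block Abl2 rose (limma adjusted p = 0.0358) and Abl1 did not pass (limma adjusted p = 0.0594). In that model Pik3r1 and Sh2d3c, named after their values were seen, fell (limma adjusted p = 0.0206 and 0.0354). Of the most abundant others, the adaptor gene Grb10 was at 122 ± 36.5 FPKM in Luc and 135 ± 22.6 in cFos, and Ptpn11, which encodes the phosphatase SHP2, at 48.2 ± 3.51 and 46.1 ± 5.01.

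None of 8 tested genes of ephrin reverse signalling passed, and none of 4 tested proteases of Eph receptors and ephrins did. Sdcbp, which encodes syntenin, a binding partner of ephrin-B tails, was at 87.6 ± 7.88 FPKM in Luc and 121 ± 26.0 in cFos. Tln1, which encodes the integrin adaptor talin, was at 70.7 ± 10.02 and 53.1 ± 5.50 FPKM. Mmp14, a membrane metalloprotease gene, was at 232 ± 22.7 and 183 ± 46.6 FPKM. Adam10, whose protease sheds ephrins, was at 38.5 ± 3.47 and 48.1 ± 5.69 FPKM with the cFos libraries all above the Luc libraries, and it did not pass.

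**Figure D5:**
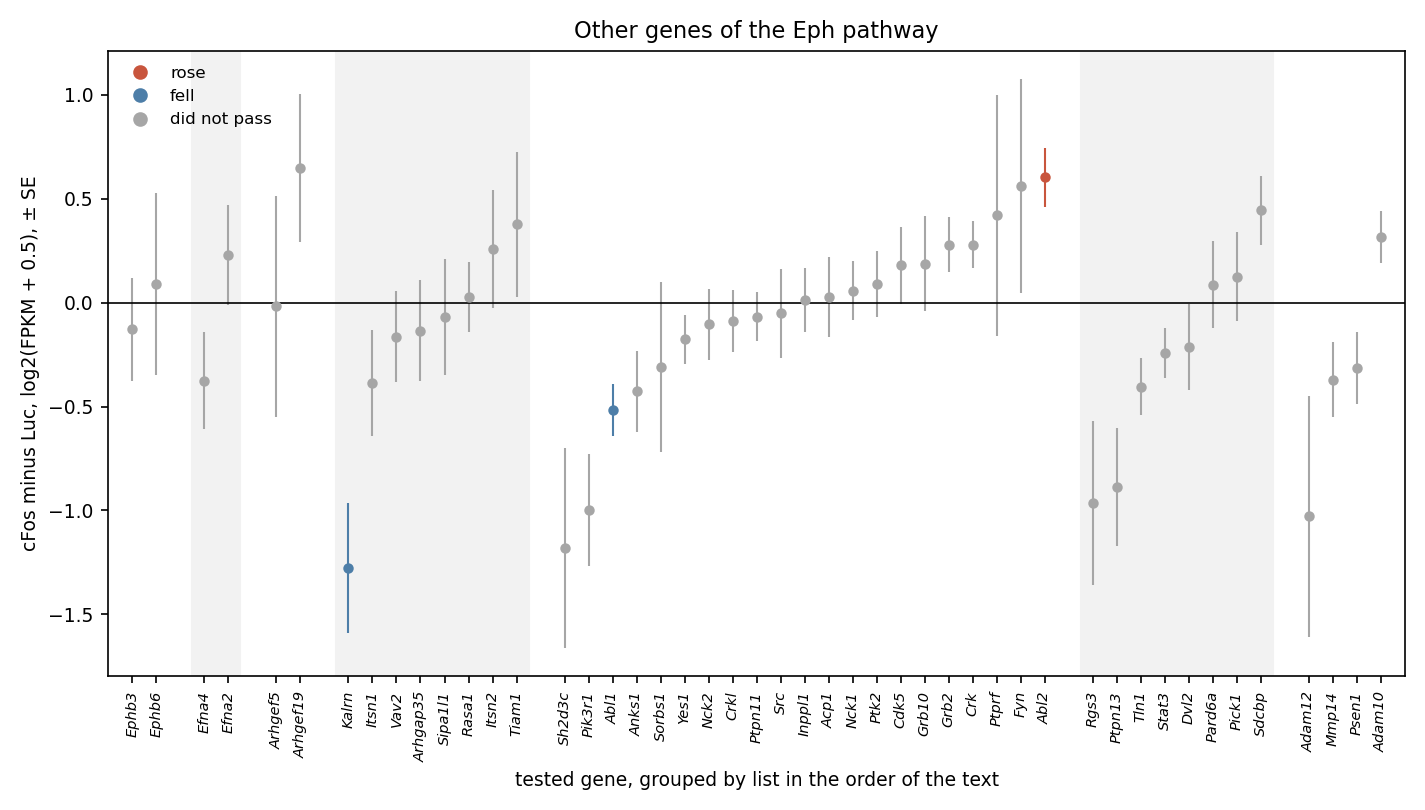
Difference of cFos and Luc on the scale of log2(FPKM + 0.5) with its SE for the 47 tested genes of the 7 pathway lists, red for genes that rose, blue for genes that fell and grey for those that did not pass. The 3 calls, Kalrn and Abl1 below 0 and Abl2 above, lie among 44 grey points on both sides of 0.

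The libraries held 6.93 to 9.14 gigabases of sequence on annotated transcripts. Fos was at 41.1 to 302 FPKM in Luc and 505 to 1019 in cFos. It was highest in clone 8 in both arms, while Ngef in cFos 8 was level with cFos 2 and cFos 4. Of 12 stromal markers all reached 1 FPKM in some library and 6 did so in all, while the surface markers Eng, Nt5e and Thy1 were below 1 FPKM in 4 or 5 of the 8 libraries. The stromal list summed to 6069 to 10916 FPKM in Luc and 7400 to 11479 in cFos, sums that a few abundant genes carry. Among them Cxcl12 was at 1168 to 7270 FPKM in Luc and 174 to 645 in cFos, and Vim at 977 to 1837 in Luc and 3353 to 6577 in cFos, so the arms differed in opposite directions. The lists for other cell types were low. Of 10 endothelial markers, relevant because Ephb4 and Efnb2 are known from veins and arteries, only Flt1 reached 1 FPKM. Cdh5 was at 0 in all libraries, and the list summed to 0.709 to 1.18 FPKM in Luc and 0.598 to 3.53 in cFos, higher in cFos in 3 clones. In these bulk samples fewer cells with a transcript and less transcript per cell cannot be told apart.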

How the data were processed

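Polyadenylated RNA of 8 cultures was sequenced from Illumina TruSeq libraries, per the labels' protocols. The tools named are CASAVA 1.8.2, TopHat and Cufflinks, and the build is mm9, per the submitters' processing notes. Other versions and options, and the annotation, are not given in these sources. The deposited tables list 30769 entries for 30239 distinct RefSeq transcripts. Per the file headers, they hold FPKM values, confidence limits and coverage (a signal of mean depth per base, used here for depth only). Coverage times length summed to 6.93 to 9.14 gigabases in each library. Read numbers are not among the columns.

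Symbols came from an NCBI RefSeq table (GRCm38.p6) for 30227 entries and from GENCODE M21 for 180, and 362 kept their accession. All 10 members matched. FPKM was summed per symbol, and a status other than OK took out 3 genes. Coordinates are mm9, counted from 1. Coding sequences came from GENCODE M21 transcripts matched by RefSeq accession (GRCm38).

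Arms were compared with limma 3.58.1 under R 4.3.3 (lmFit, then eBayes with trend) using log2(FPKM + 0.5). A gene was tested when 4 or more of the 8 libraries reached 1 FPKM, and it was called when its two-sided p, adjusted by Benjamini-Hochberg over every tested gene, was under 0.05. Clones were compared by an F test in a fit with arm and clone. A further gene list is not reported here. The code was tested on simulated data. The genes named are all members, each called gene of the pathway lists with up to 2 abundant others per list, and the 5 genes most like Ngef by each of 2 correlations. Fos, cell type markers and the genes next to Ngef are named as well. Epha1, Epha7, Arhgef15, Arhgef16, Pik3r1 and Sh2d3c lie outside this rule and were named with their values known. Members, lists and alternatives were chosen with earlier results of these data known. Cultures of different clones are separate lines, and no culture was repeated within a clone and virus.

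The clone numbers pair the libraries, since same-numbered libraries come from the same line. The deviations of these libraries around their arm means correlated by 0.174, 0.593, 0.349 and 0.437 within clones 2, 4, 8 and 12. Tables were joined with pandas 2.3.3 and numpy 2.4.6 in Python 3.11.15, and plots were drawn with matplotlib 3.10.9.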

Additional observations from a re-analysis of the deposited data

Results flagged for a closer look

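In 3 of the 20 sets of 4 libraries examined (each of the 10 genes in each arm), 1 library lay far from the others by Dixon's criterion on FPKM. For separate sets of normally distributed values chance gives about 1 in 20. Low FPKM values need not be so distributed, and the sets share libraries, so the 3 flags are not read against that rate. Ngef in cFos 12 was at 19.9 FPKM, with the other cFos libraries at 37.4 to 39.9. Epha4 in Luc 12 was at 3.06 FPKM with the other Luc libraries at 0.318 or less, and Epha4 in cFos 12 was at 0.881 FPKM with the other cFos libraries at 0.0970 or less. All 3 flags are libraries of clone 12.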

How the results depend on the processing

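Ngef stayed called as higher under all 17 alternatives, with log2 differences from 4.78 (pseudocount 1) to 6.76 (pseudocount 0.1). The genes were selected on this contrast starting from the level of Ngef, so its calls are a description and no independent support. Efnb1 stayed called as lower in 15, without a call when cFos 2 or cFos 4 was left out, and its difference ran from -1.72 to -1.34. Epha2, Ephb2, Ephb4 and Efna1 were called in none of the 17 and Epha3 in none of the 16 in which it could be tested, and Efna5 and Efnb2 were called with the clone block alone. With the clone as a replicate block, 503 genes rose and 478 fell, against 326 and 293 without it, 3 members fell instead of 1, and 3 pathway genes fell instead of 2. With no filter on low genes 175 genes fell, 0 pathway genes rose instead of 1 and 1 fell instead of 2, and no gene differed between clones (0 of the members), where limma called 54 in the main test. With a minimum of 5 FPKM 6 genes differed between clones, 0 of them members, and 1 pathway gene fell. With the highest entry per symbol 1 member differed between clones, 0 pathway genes rose and 1 fell. With pseudocount 1 or no mean-variance trend 1 pathway gene fell, and with median-ratio or upper-quartile scaling 0 did. Leaving out each library in turn gave 150 to 319 rises and 85 to 295 falls over all genes, 0 to 1 falls among members, 0 to 1 rises and 0 to 1 falls among pathway genes, 0 to 115 genes that differ between clones and 0 to 3 such members. The causes were not tested. Low genes such as Ngef in Luc are limited by depth. The authors give confidence limits per transcript, but no counts are given.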

Other observations

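The genes next to Ngef were examined after its values were seen, taking the nearest tested genes, 2 on each side. Neu2, which encodes a cytosolic sialidase, lies 156 bases beyond the start of the longer Ngef transcript (mm9, chromosome 1, 89470602 to 89494415). Neu2 measured 0.0149, 0.0338, 0.0736 and 0.0182 FPKM in Luc (clones 2, 4, 8 and 12 in turn) and 1.73, 2.16, 3.71 and 1.58 in cFos. All cFos libraries were above all Luc libraries, by a difference of 2.33 on the log2 scale (SE 0.27). Neu2 reached 1 FPKM in the 4 cFos libraries and in no Luc library, so it entered the fit through the arm where it is high, and no p-value is given. Most of the signal was assigned to the shortest Neu2 transcript (NM_015750, 89491125 to 89494415), at 1.52 to 3.61 FPKM in cFos. The other 3 genes did not pass. Gigyf2 was at 18.1 ± 1.79 FPKM in Luc and 17.0 ± 0.699 in cFos, Eif4e2 at 35.3 ± 2.32 and 33.1 ± 1.64, and Atg16l1 at 8.60 ± 0.378 and 8.05 ± 0.698.

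By Pearson correlation of log2(FPKM + 0.5) over the 8 libraries, the tested genes most like Ngef were L1cam (0.997), Baalc (0.996), Cd109 (0.995), Diras1 (0.992) and Rhpn2 (0.992). Such values are set by the difference between the arms. Diras1, a small GTPase of the Ras family, was at 0.0959 ± 0.0217 FPKM in Luc and 3.90 ± 1.11 in cFos. Rhpn2, a rhophilin gene, was at 0.120 ± 0.0199 and 1.68 ± 0.308 FPKM. Among the other members the correlation with Ngef ran from -0.92 for Efnb1 to 0.69 for Epha2. Over the deviations from the arm means, which leave the arms out, the genes most like Ngef were Arl8a (0.980), Tomm6os (0.979), Timm17b (0.979), Romo1 (0.972) and Zdhhc8 (0.971), with no gene in common with those above. The members ranged there from -0.59 for Efnb1 to 0.39 for Epha2. The deviations of Ngef rest largely on cFos 12, at 19.9 FPKM beside 37.4 to 39.9, and on Luc values of 0.397 FPKM or less. The genes were picked as the highest over all tested genes from 8 libraries, so correlations this high can arise by chance. The points share library and depth, and no p-value is given.

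The word TGANTCA, searched on both strands, was in 0 of the 11 RefSeq promoter windows of the 10 genes (GRCm38.p6, 300 bases around a start). Among all 32851 windows, 7.81% held it. N stood for any base, so the word is wider than the AP-1 site. At that share 11 windows are too few for a count of 0 to be read. The word TGACGTCA was in 1 of the 11, that of Epha2, where 1.79% of all windows held it. The Ngef window is that of the longer transcript, and a window at the start of the shorter was not used here.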
